A study of Mus musculus with 21 samples.

Results

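miRNAs of the miR-34 and miR-449 families were followed by small RNA sequencing in 2 mouse organs of the auditory system, at E16, P0 and P16. The members were the rows of the count table named mmu-miR-34a-5p, mmu-miR-34b-5p, mmu-miR-34b-3p, mmu-miR-34c-5p, mmu-miR-34c-3p, mmu-miR-449a-5p and mmu-miR-449c-5p, 7 of 1647 listed miRNAs. The organs were the cochlea, sampled as the sensory epithelium of the inner ear, and the superior olivary complex (SOC), a group of auditory nuclei in the brainstem whose samples carry the cell type label neuronal. All mice were wild type and untreated, and each sample pooled tissue from several animals of both sexes. At the successive ages the cochlea had 2, 4 and 4 libraries, and the SOC had 4, 4 and 3.

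miRNAs of this family load into Argonaute and repress mRNAs that pair with their seed, bases 2 to 8 of the mature strand. miR-34a is transcribed from its own gene and is best known as a target of p53 and as a brake on the cell cycle. miR-34b and miR-34c come from one transcript, miR-449a and miR-449c lie in introns of Cdc20b, and these 2 clusters are known for their abundance in multiciliated cells, where they act in the making of motile cilia. In the developing brain, family members have been linked to neuronal differentiation and maturation.

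The mature strands are shown to tell which members share a seed. The sequences are those of RefSeq on GRCm38.p6, which held 6 of the 7 members, and capitals mark the seed.
mmu-miR-34a-5p: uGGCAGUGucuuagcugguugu
mmu-miR-449a-5p: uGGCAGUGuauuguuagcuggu
mmu-miR-34b-5p: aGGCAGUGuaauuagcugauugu
mmu-miR-449c-5p: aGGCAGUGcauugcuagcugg
mmu-miR-34b-3p: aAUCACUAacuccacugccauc
mmu-miR-34c-3p: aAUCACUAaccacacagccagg
The label of a single shared seed held for the 5p strands only. The seed GGCAGUG occurred in 4 of 1679 mature sequences of that table, all of them 5p members, while the 3p strands of miR-34b and miR-34c shared the seed AUCACUA, which occurred in no other of them. miR-34a-5p and miR-449a-5p were identical over their first 9 bases and matched at 15 of 22 positions when aligned from the 5′ end without gaps. The 3p strands of miR-34b and miR-34c were identical over their first 10 bases and matched at 17 of 22 positions.

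On GRCm38, Mir34a lies at chr4:150068454-150068555 on the plus strand, where its last bases overlap an exon of Gm37795, a transcript model still to be experimentally tested. Mir34c at chr9:51103034-51103110 and Mir34b at chr9:51103562-51103645 lie 451 bases apart on the minus strand, within an intron of Btg4, which is transcribed from the opposite strand. Mir449c at chr13:113035983-113036091 and Mir449a at chr13:113037534-113037624 lie 1442 bases apart on the plus strand, in introns of Cdc20b on the same strand.

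The libraries differed widely in depth. Total counts ranged from 124400 to 447419 in the cochlea (median 196885) and from 8309669 to 18053698 in the SOC (median 11706138), so that 3 counts corresponded on average to 16.1 CPM (counts scaled to the library total) in the cochlea and to 0.259 CPM in the SOC. All CPM values were further adjusted by edgeR's TMM factors, which are trimmed means that even out differences in library composition. RNA kit, library kit, mouse substrain and organ coincided, so levels were compared within an organ only. Ligation during library preparation favours some miRNAs, so the order of different miRNAs within a library carries that bias too. The SOC libraries fell into 3 sets by the share of counts on a pair of miRNAs, a split known from earlier results of these data and given by no label. In set A (E16 replicates 2 and 3, P0 replicates 2 and 3) miR-99b-5p took 17.2 to 19.6% of counts. In set C (P0 replicate 4, P16 replicates 2 and 3) miR-191-5p took 0.277 to 0.322%. Set B held the other 4 libraries (E16 replicates 1 and 4, P0 replicate 1, P16 replicate 1). Of the markers of the labelled tissue, the hair cell miRNAs miR-183-5p, miR-96-5p and miR-182-5p were counted in all 10 cochlea libraries, and the neuronal miR-124-3p, miR-9-5p and miR-128-3p in all 11 SOC libraries. miR-96-5p had 1 to 46 counts in the cochlea. The hair cell miRNAs were also counted in all 11 SOC libraries and the neuronal ones in all 10 cochlea libraries, so detection alone does not separate the organs.

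In the SOC, miR-34a-5p rose and miR-449a-5p fell between E16 and P16, and they exchanged places as the most abundant 5p strand with the shared seed. miR-34a-5p was 19.5-fold higher at P16 than at E16, and miR-449a-5p was 9.59-fold lower. Both were DE, which here meant that the replicates of the compared ages did not overlap, that the fold change was over 1.5, and that the Benjamini-Hochberg FDR in edgeR's quasi-likelihood test was under 0.05. In the cochlea miR-34a-5p was the dominant 5p strand at each age, and it was 4.86-fold higher at P16 than at E16. The plot of levels by library shows both organs.

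**Figure D1:**
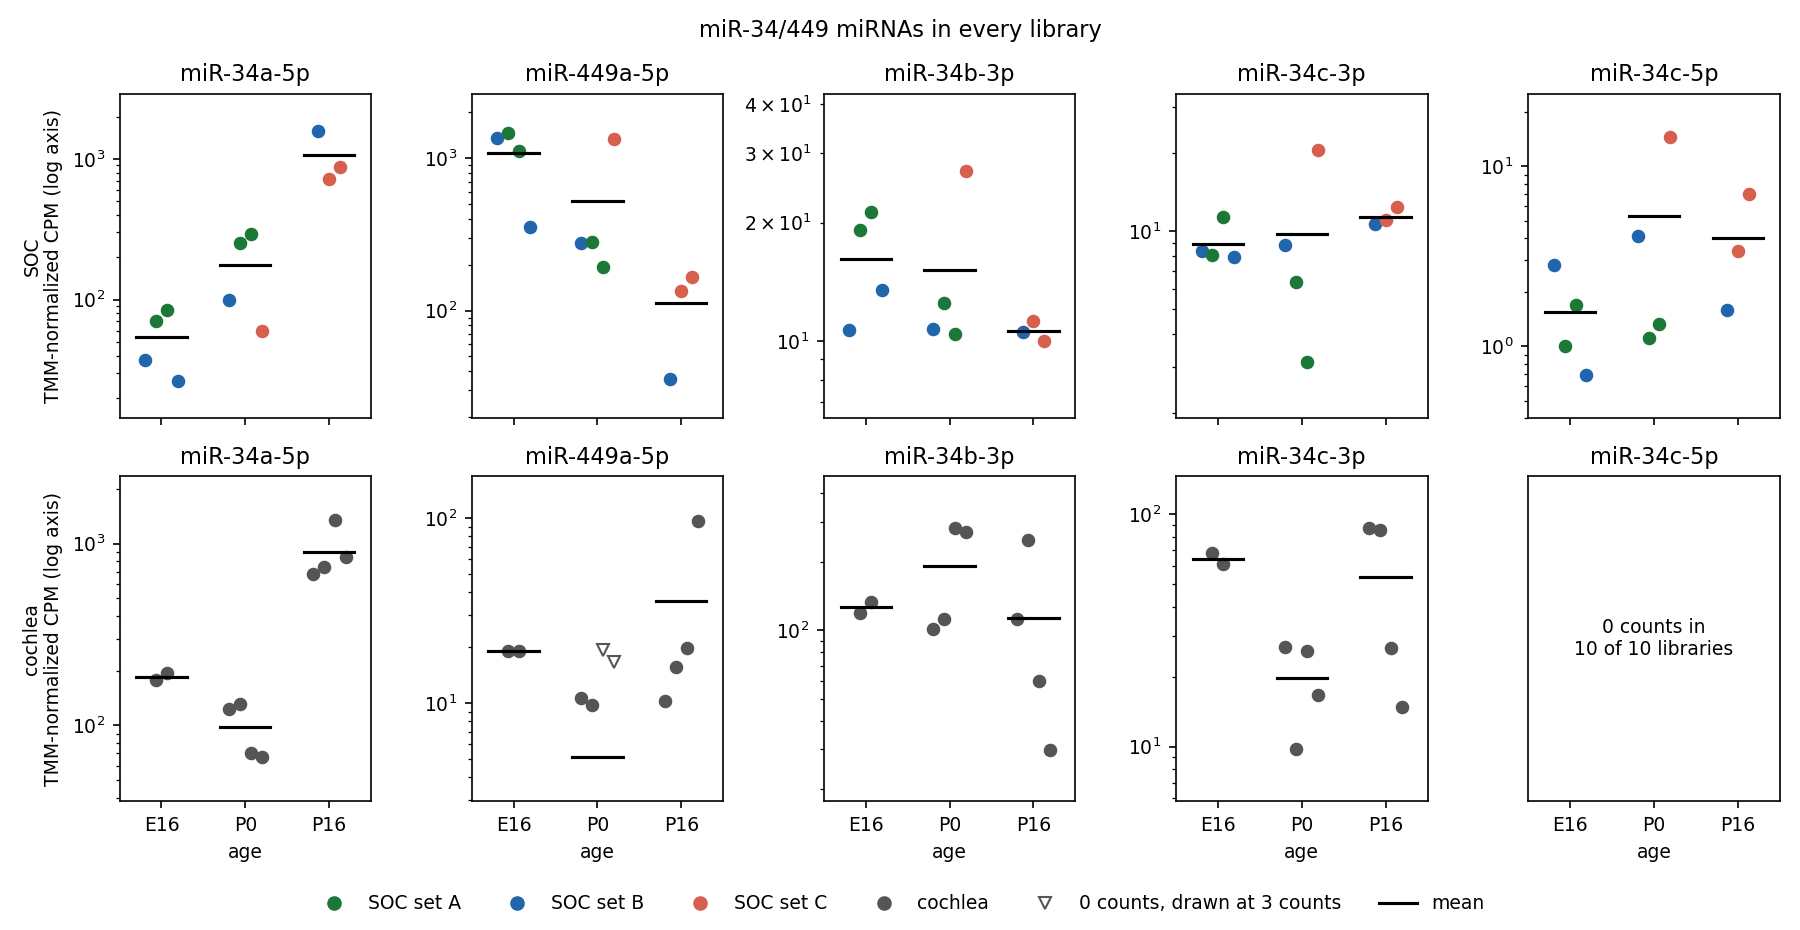
Level of 5 miRNAs of the miR-34 and miR-449 families (y axes, TMM-normalized CPM on log axes that differ between panels) at E16, P0 and P16 in the SOC (upper row) and the cochlea (lower row). Each point is a library, coloured by library set in the SOC, black lines are group means, and open triangles mark libraries with 0 counts, drawn at 3 counts. SOC miR-34a-5p at P16 lay between 722 and 1585 CPM, above all E16 and P0 libraries, and P0 replicate 4 of the SOC held the highest P0 level of the other 4 members shown.

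miR-34a-5p in the SOC measured 37.2, 70.1, 83.9 and 26.3 TMM-normalized CPM in the 4 E16 libraries. At P0 it measured 98.5, 250.4, 291 and 59.9 CPM. At P16 it measured 1585, 722 and 876 CPM. All P16 libraries lay above all others, whereas P0 replicate 4 fell within the E16 range. Between SOC libraries of the same number, which no label pairs, miR-34a-5p was higher at P0 than at E16 in 4 of 4 pairs, by 2.65, 3.57, 3.47 and 2.28 times. The means were 54.3 ± 27.1 (SD, n = 4), 175 ± 113 (n = 4) and 1061 ± 460 CPM (n = 3), which placed miR-34a-5p 206th, 130th and 56th among all listed miRNAs.

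From E16 to P16 the log2 fold change of miR-34a-5p was 4.29 (SE 0.65, FDR 0.000442, edgeR), the 21st highest of the 694 miRNAs tested in the SOC. It was 5.60 when library set was a covariate and 5.05 without the libraries of set A, and DE in both. From P0 to P16 it was 2.60 (SE 0.61, FDR 0.0133), and this increase was DE as well. From E16 to P0 it was 1.69 (SE 0.57, FDR 0.0979), which did not pass. Within set A the P0 mean was 3.52-fold higher than the E16 mean, and within set B it was 3.10-fold higher. Set C held no E16 library, and within it miR-34a-5p was 13.3-fold higher at P16 (2 libraries) than at P0 (1 library). Within set B it was 16.1-fold higher, with 1 library at each of these ages. Without the 3 libraries of set C, the increase from E16 to P0 was DE (log2 fold change 2.04, FDR 0.0119), and likewise without P0 replicate 4 alone (2.04, FDR 0.0266).

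miR-449a-5p in the SOC measured 1360.2, 1470.3, 1118 and 352 CPM at E16. At P0 it measured 276, 284, 194 and 1344 CPM. At P16 it measured 35.5, 134 and 167 CPM. The P16 libraries all lay below those of E16 and P0, and P0 replicate 4 again sat among the E16 libraries. By pairs of the same number, miR-449a-5p was 4.92, 5.18 and 5.77 times lower at P0 than at E16 in replicates 1 to 3, and 3.82 times higher in replicate 4. The means were 1075 ± 504 (n = 4), 525 ± 548 (n = 4) and 112 ± 68.4 CPM (n = 3), at rank 53, 79 and 151 among all listed miRNAs.

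The log2 fold change of miR-449a-5p from E16 to P16 was -3.26 (SE 0.85, FDR 0.00958, edgeR), the 57th lowest of 694. Without the 4 miR-99b-5p-rich libraries of set A this call was lost (-3.00, FDR 0.0626), at a similar size. The fall was larger when library set was a covariate (-4.96, FDR 2.52e-06). Without set C it was -4.96 as well, and within set B the P16 level was 24.1-fold lower than the E16 mean. These last values rest on 1 P16 library, replicate 1, which held the lowest miR-449a-5p level. From P0 to P16 the log2 fold change was -2.23 (SE 0.81) with an FDR of 0.0717, so it missed the threshold although the replicates did not overlap. Without P0 replicate 4 alone it was -1.13 (FDR 0.153). From E16 to P0 it was -1.04 (SE 0.70, FDR 0.426), with -2.03 (FDR 0.0686) without P0 replicate 4 alone and -0.13 (FDR 0.959) without set A. Within set A the P0 mean was 5.42-fold lower than the E16 mean, and within set B it was 3.10-fold lower. Within sets B and C the P16 level was 7.79-fold and 8.94-fold lower than the P0 level, on 1 and 2 P16 libraries against 1 P0 library each. Without set C, which left 1 P16 library, the log2 fold changes were -2.03 from E16 to P0 and -2.94 from P0 to P16.

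**Figure D2:**
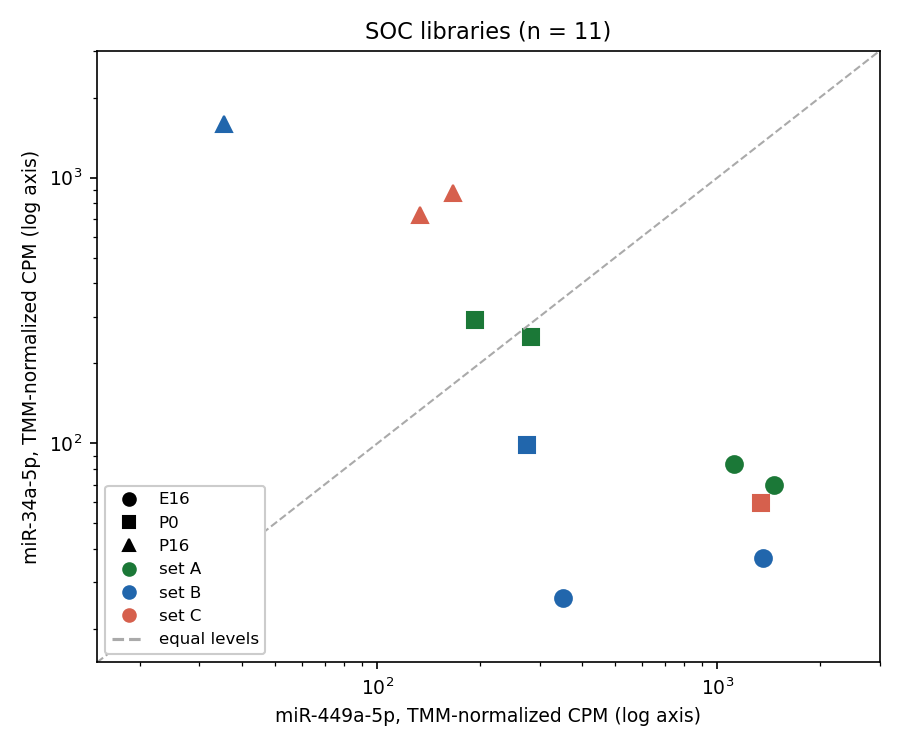
miR-34a-5p (y axis) against miR-449a-5p (x axis) in the 11 SOC libraries, both as TMM-normalized CPM on log axes, with age given by the shape and library set by the colour of each point. The dashed line marks equal levels: all 4 E16 libraries lie below it, all 3 P16 libraries above it, and of the P0 libraries replicate 3 lies above it, with replicate 4 beside the E16 libraries.

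Summed over the 5 strands with the seed, the SOC held 379 to 1541 CPM at E16, 379 to 1420 CPM at P0 and 859 to 1622 CPM at P16. The sums at the 3 ages overlapped, while their makeup did not stay the same. miR-34a-5p made up 2.65 to 6.97% of the summed counts at E16. At P0 it made up 26.0, 46.8, 59.9 and 4.22% in replicates 1 to 4, and at P16 97.7, 84.0 and 83.4%. miR-449a-5p made up 92.9 to 97.1% at E16, 39.9 to 94.7% at P0 and 2.19 to 15.9% at P16. P0 replicate 4 was the library whose shares fell within the E16 range. These shares rested on 4361 to 23891 counts per SOC library, which gave the lowest share of miR-34a-5p at P16 an exact 95% binomial interval of 82.6 to 84.1% and the highest at P0 one of 58.6 to 61.1%. The intervals cover counting error only, since PCR copies could not be told from separate molecules.

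**Figure D3:**
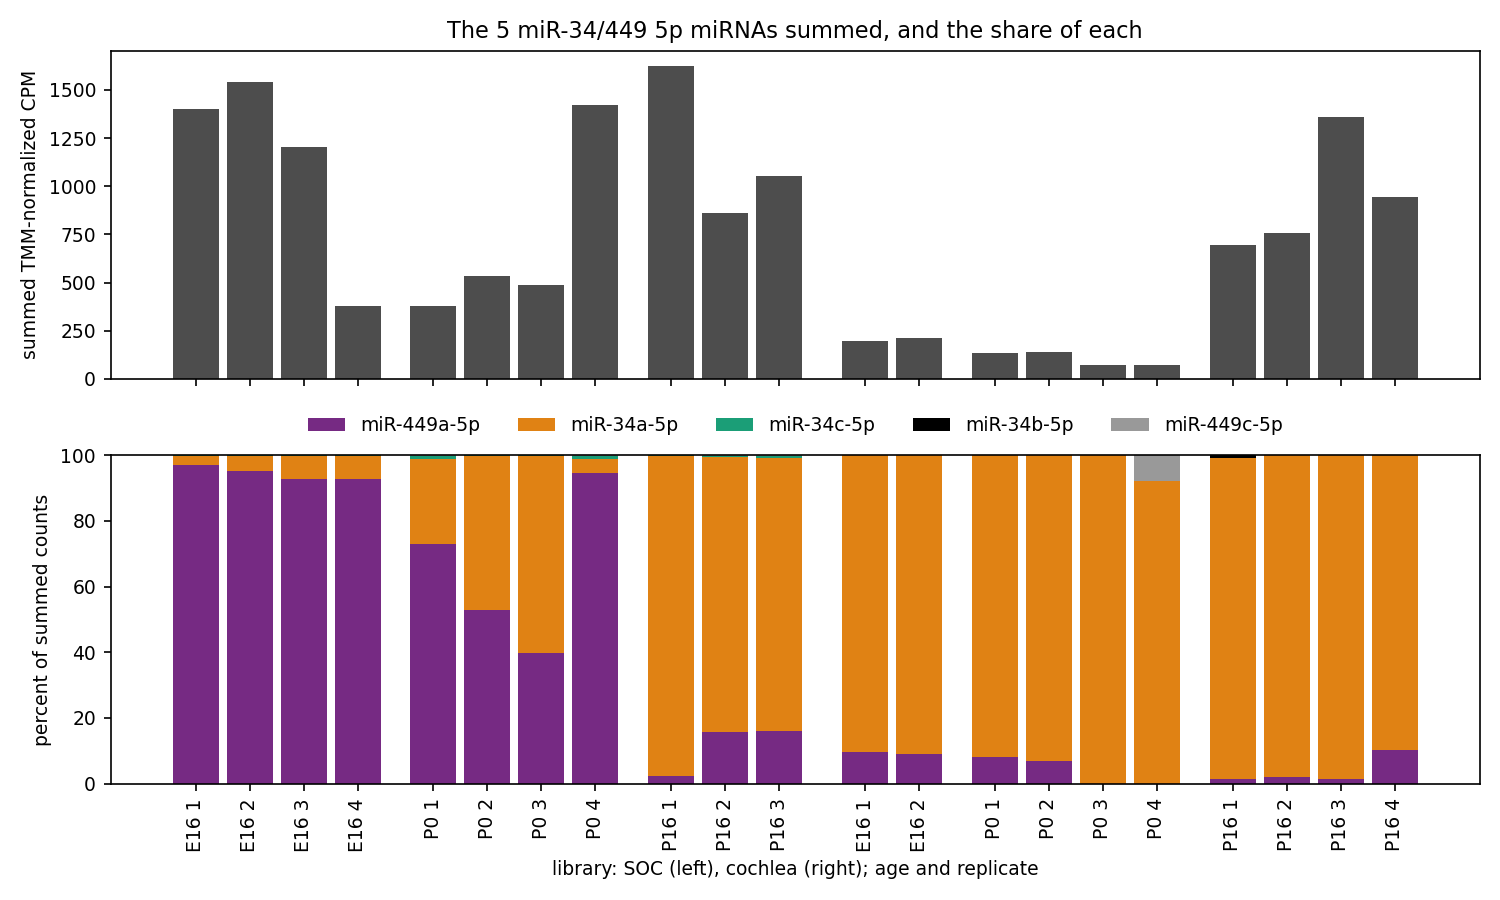
Summed TMM-normalized CPM of the 5 strands miR-34a-5p, miR-34b-5p, miR-34c-5p, miR-449a-5p and miR-449c-5p (upper panel) and the percent of their summed counts that each contributed (lower panel), with 1 bar per library by organ, age and replicate. In the SOC the bars turn from miR-449a-5p at E16 to miR-34a-5p at P16, and in the cochlea miR-34a-5p holds at least 89.8% of every bar.

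Markers of other cell types moved with these miRNAs in the SOC. The 7 epithelial miRNAs of the miR-200 family, miR-203 and miR-205, summed, stood at 926 to 1963 CPM at E16, 56.2 to 195 CPM at P0 and 49.7 to 146 CPM at P16. The 3 miRNAs of the hair cell list, which the SOC also expresses, stood at 85041 to 164668, 4392 to 28713 and 521 to 3502 CPM. The 3 muscle miRNAs stood at 113 to 292 CPM at E16, at most 22.7 CPM at P0 and 9.01 to 24.2 CPM at P16. All these lists were highest at E16, as was miR-449a-5p. In P0 replicate 4, miR-449a-5p was at its E16 level, and all 3 lists were at their lowest of the P0 libraries (56.2 CPM for the epithelial and 4392 CPM for the hair cell list). That library was the only P0 library of set C, so its difference from the other P0 libraries cannot be told apart from library set. Of the choroid plexus markers, miR-211-5p was at 0 in 11 of 11 SOC libraries and miR-204-5p had 9 to 30 counts. Of the 4 epithelial miRNAs that could be tested, 3 were DE and lower at P16 than at E16, as were 3 of 3 in the hair cell list and 1 of 2 testable muscle miRNAs. The part of these cell types in the fall of miR-449a-5p was not tested, and in such bulk tissue fewer cells of a type and less RNA per cell cannot be told apart. Dissection differed too: by the paper's methods, SOC tissue at E16 was cut from frozen whole heads. At P0 and P16 it was cut from brains first removed from the skull. Dissection and age therefore cannot be told apart in any SOC comparison with E16.

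Alongside miR-34a-5p, the oligodendrocyte miRNA miR-338-3p went from 25.5 to 90.1 CPM at E16 over 51.2 to 213 CPM at P0 to 403 to 1959 CPM at P16. It was DE from E16 to P16, with a log2 fold change of 4.05. P16 replicate 1, the only P16 library of set B, was the highest P16 library for miR-338-3p and for miR-34a-5p. It was also the highest for the summed neuronal, hair cell and muscle miRNAs. The summed epithelial, choroid plexus and blood miRNAs were highest in P16 replicate 3. The neuronal list, summed, ran from 36910 to 116635 CPM at E16 and from 48938 to 107761 CPM at P0. At P16 it ran from 24754 to 42886 CPM. This sum hides members that went different ways from E16 to P16. miR-124-3p was DE and higher at P16, as miR-34a-5p was. miR-128-3p was higher and miR-9-5p lower, and neither was DE. The 4 listed blood miRNAs, summed, ran from 60.4 to 86.6, from 36.2 to 146 and from 101 to 199 CPM. Of these, miR-451a was DE and higher at P16 than at E16, and miR-223-3p was DE and lower. Neither miR-142a-3p nor miR-144-3p was DE. The part of oligodendrocytes, neurons or blood in the rise of miR-34a-5p was not tested.

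The minor strands of both hairpins went the same way in the SOC. miR-34a-3p had 0 to 4 counts at E16, 0 to 10 at P0 and 17 to 42 at P16, and it was DE and higher at P16 than at E16 (log2 fold change 4.25, SE 1.06, FDR 0.0071). Its E16 mean of 0.136 CPM lay below the 0.242 CPM of 3 counts there, so the size of this change is uncertain. miR-449a-3p had 9 to 76 counts at E16, 5 to 24 at P0 and 0 to 2 at P16. Against 3 counts per P16 library, miR-449a-3p was at least 11.5-fold lower at P16 than at E16 and at least 3.97-fold lower than at P0, and both decreases were DE (FDR 0.00407 and 0.0414). These strands came from the same hairpins as miR-34a-5p and miR-449a-5p, and were at most 1.90% and 0.366% of the counts of both arms in the SOC. In the cochlea miR-449a-3p was at 0 throughout. There miR-34a-3p had 4 and 6 counts at E16, 0 at P0 and 0 to 3 at P16, so it did not follow the rise of miR-34a-5p. Its fall from E16 to P0 was called DE (FDR 0.0477, edgeR). Its E16 mean of 11.6 CPM lay below the 16.6 CPM of 3 counts at P0, so no bound can be given.

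The miR-34b/c cluster was low in the SOC and none of its 3 testable strands was DE at any age. miR-34b-3p measured 10.7, 19.2, 21.3 and 13.5 CPM at E16, 10.8, 12.5, 10.4 and 27.0 CPM at P0 and 10.5, 11.2 and 10.1 CPM at P16. miR-34c-3p measured 8.38, 8.10, 11.3 and 7.91 CPM at E16, 8.82, 6.39, 3.13 and 20.5 CPM at P0 and 10.6, 11.0 and 12.3 CPM at P16. The ages overlapped for both, with log2 fold changes from E16 to P16 of -0.61 (SE 0.44, FDR 0.277) and 0.35 (SE 0.53, FDR 0.614). miR-34c-5p measured 2.81, 1.00, 1.70 and 0.69 CPM at E16, 4.11, 1.11, 1.33 and 14.5 CPM at P0, and 1.60, 3.39 and 6.99 CPM at P16. P0 replicate 4 held the highest P0 level of all 3, and for miR-34c-5p that library accounted for 125 of the 245 P0 counts. Reads of such similar strands may fit more than a single miRNA and how the authors counted them is not given in the sources used here, so the split between miR-34b and miR-34c is uncertain. The direction of these changes depended on the processing: from E16 to P16, miR-34c-3p and miR-34c-5p turned from 0.35 and 1.35 to -0.43 and -0.68 when library set was a covariate.

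The other 2 members were barely counted. miR-34b-5p had 0 to 2 counts and miR-449c-5p 0 to 8 counts in each SOC library, and neither passed the filter on low counts, which asked for more than 1 CPM in 2 or more replicates of an age. In the cochlea miR-34b-5p had 1 count in 1 of 10 libraries, miR-449c-5p 1 count in 1 of 10, and miR-34c-5p 0 counts in 10 of 10. A count of 0 allowed up to 6.68, 16.6 and 20.2 CPM on average at E16, P0 and P16 in the cochlea, so these members were not detectable there at this depth, which is not to say that they were absent.

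Taking tested members only, 0 of 5 in the SOC were DE from E16 to P0, 2 of 5 from E16 to P16 and 1 of 5 from P0 to P16. Over all 694 miRNAs tested, 6.63, 41.2 and 16.1% were DE in these comparisons. At an unadjusted p under 0.05, 1 member passed from E16 to P0, and DESeq2 called 0 of 5 there. The replicates of 2 members each did not overlap from E16 to P16 and from P0 to P16, beside 52.2 and 28.0% of all tested miRNAs, and those of 0 members from E16 to P0. The members' median log2 fold changes were 0.12, 0.35 and -0.39, beside 0.17, 0.08 and -0.15 over all tested miRNAs. The members' shares of DE calls lie near this background, with 5 members to count.

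In the cochlea, miR-34a-5p measured 177 and 193 CPM at E16 and 123, 132, 70.7 and 66.5 CPM at P0. At P16 it measured 679, 739.7, 1342 and 848 CPM. The P0 libraries were the lowest and the P16 libraries the highest, with no overlap between any pair of ages. The means were 185 ± 11.5 (n = 2), 98.0 ± 34.1 (n = 4) and 902 ± 301 CPM (n = 4), on 65 to 111, 11 to 27 and 95 to 202 counts per library.

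The log2 fold change of miR-34a-5p in the cochlea was 2.28 from E16 to P16 (SE 0.49, FDR 3.57e-05, edgeR) and 3.19 from P0 to P16 (SE 0.41, FDR 5.75e-13), and both increases were DE. The latter was the 43rd highest of 896 and corresponds to a 9.10-fold difference. From E16 to P0 it was -0.90 (SE 0.46), and the FDR of 0.128 missed the threshold. Scaled by library totals without TMM factors, which moved the median of all tested miRNAs to -0.38, the same step was -1.34 (FDR 0.0226) and DE. The hair cell list, summed, stood at 52240 to 55891 CPM at E16, 33753 to 38017 CPM at P0 and 16693 to 38412 CPM at P16. miR-338-3p stood at 12.2 to 32.6, 6.42 to 66.5 and 296 to 489.98 CPM, and the muscle list at 473 to 549, 218 to 478 and 1098 to 4297 CPM, so both were highest at P16, together with miR-34a-5p. Of the muscle list, miR-133a-3p was at 0 in 10 of 10 cochlea libraries. The rise of that list was carried by miR-1a-3p, with means of 455, 215 and 2858 CPM at E16, P0 and P16. miR-1a-3p was DE and higher at P16 than at E16 (log2 fold change 2.65) and than at P0. miR-206-3p went the other way: it was lower at P16 than at E16 and P0, and neither decrease was DE. The choroid plexus list also had its highest mean at P16, 654 CPM, beside 243 CPM at E16 and 468 CPM at P0. Its P16 libraries, at 171 to 1402 CPM, overlapped those of both other ages. The neuronal, epithelial and blood lists, summed, were highest at E16. Of their members, miR-124-3p and miR-223-3p were DE and lower at P0 than at E16, and DE and higher at P16 than at P0. The part of any of these cell types in the rise of miR-34a-5p was not tested.

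Of the other testable members, miR-34b-3p in the cochlea measured 119.6 and 134 CPM at E16, 102 to 283 CPM at P0 and 29.8 to 249 CPM at P16. miR-34c-3p measured 68.0 and 60.8 CPM at E16, 9.75 to 26.8 CPM at P0 and 14.9 to 86.8 CPM at P16. The P0 libraries of miR-34c-3p all lay below those of E16, but they rested on 2 to 5 counts each, and the log2 fold change of -1.70 (SE 0.75, FDR 0.0788) did not pass. In counts, miR-34b-3p exceeded miR-34c-3p by 1.76 and 2.2 times at E16, by 3.80 to 16.3 times at P0 and by 1.29 to 2.91 times at P16. miR-449a-5p had 7 and 11 counts at E16, 0 to 2 at P0 and 2 to 13 at P16. Against 3 counts per P0 library it was at least 1.15-fold lower at P0 than at E16 and at least 2.14-fold higher at P16 than at P0, and neither change was DE (FDR 0.234 and 0.0686). The latter bound rested on P16 replicate 4, which held 13 counts: the other 3 P16 libraries averaged 15.2 CPM, below the 16.6 CPM of 3 counts at P0, so that no bound remains without it.

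In the cochlea, 0 of 4 tested members were DE from E16 to P0, 1 of 4 from E16 to P16 and 1 of 4 from P0 to P16, and the miRNA called was miR-34a-5p. Over all 896 miRNAs tested, 24.4, 29.6 and 10.5% were DE. This background depends on the filter, since 1 count corresponded to 1.74 to 7.79 CPM in the cochlea libraries and could pass it. With at least 10 counts in 2 replicates of an age, 219, 239 and 102 of 406 miRNAs were DE. Of the 3 members then tested, 0, 1 and 1 were DE. From E16 to P0, 2 members had an unadjusted p under 0.05 and DESeq2 called 0 of 4. The replicates of 3, 1 and 1 members did not overlap, beside 48.1, 46.2 and 16.3% of all tested miRNAs. With miR-449a-5p at its bound, the members' median log2 fold changes were -0.55, 0.33 and 1.28, beside 0.00, -0.09 and 0.05 over all tested miRNAs. The plot of fold changes gives all values.

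**Figure D4:**
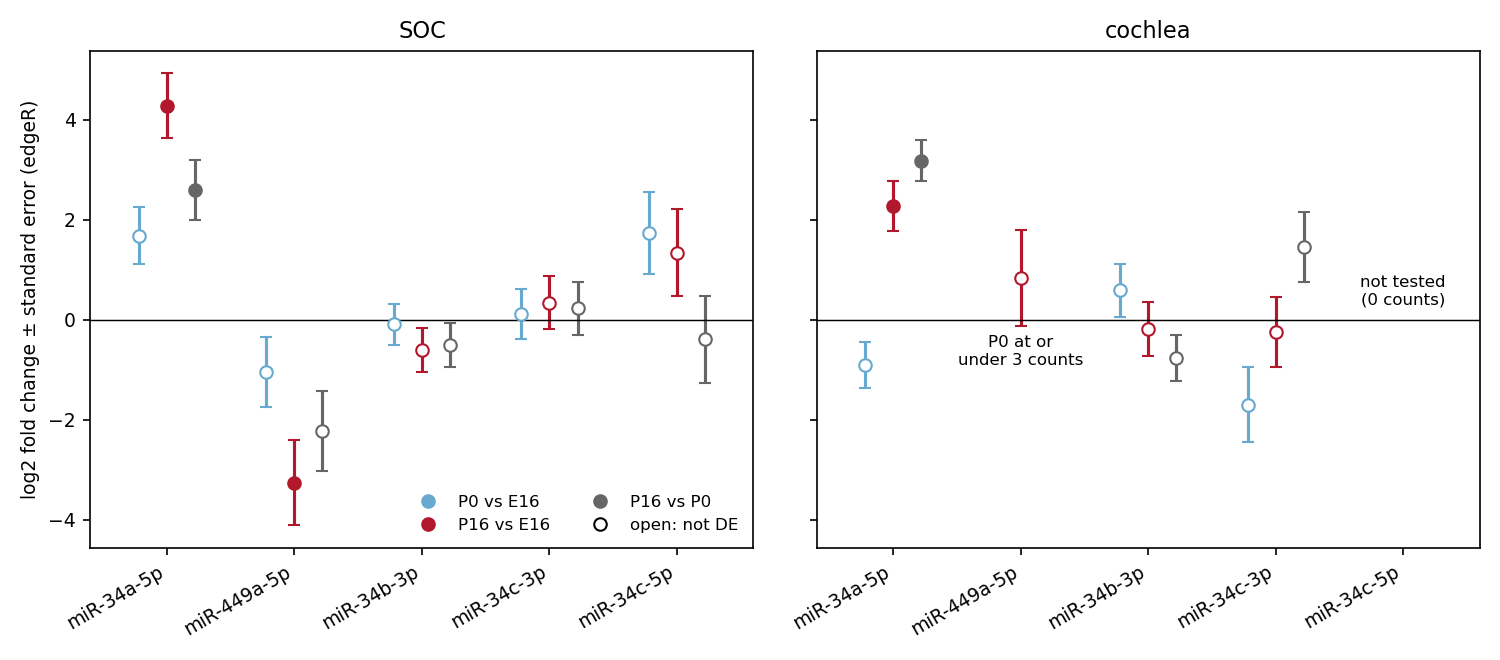
Log2 fold change with its standard error (y axis, edgeR) of each testable member (x axis) in the SOC (left) and the cochlea (right), coloured by comparison. Filled points were DE and open points were not, and changes of cochlear miR-449a-5p that involve P0 are left out, since that group had 3 counts or fewer in every library. The filled points are miR-34a-5p at P16 in both organs and miR-449a-5p from E16 to P16 in the SOC.

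Organ differences in a change were examined as the interaction of organ and age, in a model of all 21 libraries over 545 miRNAs, which included 4 members. From E16 to P0, miR-34a-5p differed by 2.45 on the log2 scale (SOC minus cochlea, SE 0.74, FDR 0.0272, edgeR), where the median of all miRNAs in this model was 0.52. It was higher at P0 in the SOC and lower in the cochlea, although neither change passed within its organ. The call was lost when any 1 of 6 libraries was left out (cochlea E16 replicates 1 and 2, cochlea P0 replicate 4, SOC E16 replicate 4, and SOC P0 replicates 2 and 3), with log2 differences of 2.08 to 2.69 and FDR values of 0.058 to 0.0681. From E16 to P16 the difference for miR-34a-5p was 1.88 (SE 0.75, FDR 0.0815), where the median was 0.38.

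miR-449a-5p differed by -4.27 from E16 to P16 (SE 1.33, FDR 0.0282), with a fall in the SOC and a log2 fold change of 0.84 (SE 0.96, FDR 0.501) in the cochlea, which was -0.37 (FDR 0.851) without P16 replicate 4. The cochlear side rested on 18 counts at E16 and 20 at P16, of which that replicate held 13, and without it the difference was -3.06 (FDR 0.127). The call was also lost without cochlea E16 replicate 1 (-4.05, FDR 0.105), cochlea E16 replicate 2 (-3.96, FDR 0.119) or SOC E16 replicate 2 (-3.98, FDR 0.0589). The differences of miR-34b-3p and miR-34c-3p did not pass. A difference between the organs was thus called for 1 of 4 members from E16 to P0 and for 1 of 4 from E16 to P16, where 11.9 and 16.9% of all 545 miRNAs were called.

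The arms of the hairpins differed in their counts. Ligation bias was not removed from these shares, and how reads that fit several strands were counted is not known. miR-34b was counted almost only as its 3p strand, at 99.1 to 100% of the counts of both arms in the SOC and 95.7 to 100% in the cochlea. miR-34c-3p made up 74.9 to 91.9% of miR-34c in the SOC at E16, 58.5 to 85.2% at P0 and 63.9 to 86.9% at P16. These ranges overlapped, on 57 to 301 counts per library. In the cochlea the share was 100% in 10 of 10 libraries, on 2 to 35 counts, where the exact 95% interval reached down to 15.8% in the shallowest. The hairpins of miR-34a and miR-449a were counted mainly as 5p strands. For comparison, the 3p strand had more counts in 246 of 482 hairpins in the SOC (51.0%) and in 181 of 320 in the cochlea (56.6%), taking hairpins with both arms listed and at least 20 counts.

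The miRNAs most like the members were sought by Pearson's r of log2 CPM over the libraries of an organ. The libraries share ages and, in the SOC, library sets, so r is a description. In the SOC, among 254 candidates over 11 libraries, miR-34a-5p was most like miR-338-3p (r = 0.929), miR-412-5p (0.925) and miR-666-5p (0.920). miR-449a-5p was most like miR-106b-5p (0.952), a member of the miR-17 family, miR-542-3p (0.906) and miR-431-5p (0.883). miR-34c-5p was most like miR-181a-1-3p (0.926), miR-194-5p (0.913) and miR-24-2-5p (0.912). In the cochlea, among 378 candidates over 10 libraries, miR-34a-5p was most like miR-1a-3p (0.960), a miRNA of striated muscle, miR-22-3p (0.957) and miR-24-3p (0.918). Between the members themselves, r of miR-34a-5p with miR-449a-5p was -0.83 in the SOC and 0.68 in the cochlea.

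Other miRNAs linked to p53 were looked up in the same fits, from a list of 6 of which 4 could be tested in each organ. In the SOC 0 of 4 were DE in any comparison with edgeR or DESeq2, and 0 had an unadjusted p under 0.05. Their log2 fold changes from E16 to P16 ran from -0.36 for miR-145a-5p (SE 1.12) to 0.34 for miR-194-5p (SE 0.42), and that of miR-34a-5p was 4.29. In the cochlea, miR-145a-5p was DE and higher at P0 and at P16 than at E16 (log2 fold changes 1.20 and 1.70), and miR-192-5p (-3.31 and -2.06) and miR-194-5p (-2.45 and -2.05) were DE and lower at both. miR-143-3p was DE and lower at P0 only (-1.50). From P0 to P16, where miR-34a-5p was 9.10-fold higher in the cochlea, miR-143-3p was higher too (log2 fold change 2.06, FDR 1.09e-07), but its replicates overlapped, so that 0 of 4 met all 3 criteria for DE with edgeR or DESeq2, and 2 had an unadjusted p under 0.05. The part of p53 in the changes of miR-34a-5p was not tested in either organ.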

How the data were processed

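The authors deposited 1 table of raw counts, the reads per mature miRNA (1647 names) and small RNA library (21), with miRBase names and no normalization. By their methods, reads were aligned with Bowtie to a reference of MirGeneDB miRNAs. The submitters' processing notes name Bowtie2 2.2.5, DESeq2 and mm10, and the counting step is not given in the sources used here. Cochlear RNA was prepared with Direct-zol and SMARTer smRNA-Seq kits and SOC RNA with innuPREP miRNA and TruSeq Small RNA kits. The substrains were C57BL/6JOlaHsd for the cochlea and C57Bl6/J for the SOC.

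Samples were grouped by the organ and age in their labels, and 0 count columns were left without a sample. Replicates are separate tissue samples by the labels, and no 2 of 28 pairs within a group had counts alike within sampling noise by a chi-square test. Differential expression was tested per organ with edgeR 4.0.16 in R 4.3.3 (TMM, quasi-likelihood, ages in 1 fit) over miRNAs above 1 CPM in 2 or more replicates of an age. This left 896 miRNAs in the cochlea and 694 in the SOC. DE required non-overlapping replicates, a fold change over 1.5 and a Benjamini-Hochberg FDR under 0.05, after the study's own criteria. The organ by age interaction was called at an FDR under 0.05. Standard errors are the log2 fold change over the square root of F, and log2 CPM used a prior count of 2. Where all libraries of a group had 3 counts or fewer, a fold is given as a bound against 3 counts per library. The code was tested on simulated counts with known changes. Alternatives were RLE factors, library totals, DESeq2 1.42.0, other count filters, no overlap criterion, a replicate block, the SOC library sets, and leaving out each library. Summary plots were drawn with Python 3.11.15.

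Same-numbered SOC libraries of E16 and P0 had correlated deviations from the mean of their group (r = 0.251 to 0.490 for 4 pairs). Of 12 pairs with unlike numbers, 2 exceeded 0.1 (r = 0.409 and 0.255). Those joined replicates 2 and 3, all of set A, where the check cannot tell a pairing by number from a shared library set. No label pairs the samples. In the other comparisons the same-numbered libraries were not correlated throughout. The members and marker lists were chosen with earlier results of these data known. Named are the 7 members, the other strands of their hairpins, 6 miRNAs linked to p53, and, for miR-34a-5p, miR-34c-5p and the most counted member of an organ, the 3 miRNAs with the highest r among those with a mean of at least 50 CPM at some age.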

Additional observations from a re-analysis of the deposited data

Results flagged for a closer look

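Among the 18 groups of 4 libraries examined, 4 held a library whose gap to the next was large against the range of the group by Dixon's criterion, which chance meets in about 1 in 20 groups. In the SOC at P0, miR-449a-5p measured 1344 CPM in replicate 4, against 194 to 284 CPM in the others. In the same library miR-34b-3p measured 27.0 CPM, against 10.4 to 12.5 CPM. In the SOC at E16, miR-34c-3p measured 11.3 CPM in replicate 3, against 7.91 to 8.38 CPM. In the cochlea at P16, miR-449a-5p measured 96.7 CPM in replicate 4 (13 counts), against 10.2 to 19.9 CPM (2 or 3 counts).

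A pair of changes differed between the organs by the interaction test. The log2 fold change of miR-34a-5p from E16 to P0 was higher in the SOC than in the cochlea by 2.45, and that of miR-449a-5p from E16 to P16 was lower (-4.27).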

How the results depend on the processing

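Of 890 results under alternatives, 809 kept their direction or size and their side of the threshold, and 29 changed direction, none of them called under either setting. The increases of miR-34a-5p to P16 stayed DE under all 21 alternatives in the SOC (log2 4.00 to 5.60 from E16, 2.27 to 3.83 from P0) and all 17 in the cochlea (1.83 to 2.66 and 2.93 to 3.40). Leaving out a cochlear E16 library leaves 1 there, and leaving out set C leaves 1 SOC P16 library. Each is assumed to vary like the other groups. Settings that moved the number of members called were as follows, and the cause was not tested. In the cochlea from E16 to P0, 2 of 4 were DE with library totals (miR-34a-5p -1.34, miR-34c-3p -2.15), against 0. From P0 to P16, leaving out each library gave 1 to 2, with miR-449a-5p added without P16 replicate 1 (2.92, FDR 0.0332) or 2 (2.87, FDR 0.0333). In the SOC from E16 to P0, 2 of 5 were DE without set C, an alternative chosen after seeing the data, and leaving out each library gave 0 to 1. From E16 to P16, 1 was DE without the miR-99b-5p-rich libraries, where 104 of 660 miRNAs were DE in all, against 286 of 694. From P0 to P16, 2 were DE with DESeq2, no filter or the library set as covariate, miR-449a-5p being added (FDR 0.0173, 0.0395 and 0.000142). Without set C, on 1 P16 library, the log2 fold change of miR-449a-5p was -2.94.

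For the organ difference from E16 to P0, 2 members were called with library totals and 0 to 1 when leaving out each library. From E16 to P16, 2 were called with the library set as covariate (miR-34a-5p 3.08, FDR 5.06e-05) and 0 to 2 when leaving out each library, 2 without SOC P0 replicate 4. With library totals miR-34a-5p was called (2.51, FDR 0.0183) and miR-449a-5p lost (-3.50, FDR 0.0501). That scaling moved the median difference of all miRNAs from 0.52 to 1.22 at P0 and from 0.38 to 1.06 at P16. With the replicate number as a block, 0 members differed from E16 to P16 (miR-449a-5p -3.78, FDR 0.120), and the block changed no other member's call. In the SOC from E16 to P0, where same-numbered libraries had correlated deviations, the blocked log2 fold change of miR-34a-5p was 1.59 (FDR 0.073). Changes of direction were as follows, on the log2 scale. In the cochlea from E16 to P16, miR-34b-3p and miR-34c-3p (-0.18 and -0.24) went to 0.16 and 0.12 with the filter at 10 counts, and miR-34c-3p to 0.062 with the block. Leaving out each library spanned -0.79 to 0.051, -0.69 to 0.020 and, for miR-449a-5p, -0.37 to 1.20. In the SOC from E16 to P0, miR-34b-3p (-0.09) went to 0.039 with library totals and 0.59 without set A, and miR-34c-3p (0.12) to -0.018 with the filter, -0.14 with the block, -0.35 with the set as covariate and -0.47 without set C. Leaving out each library spanned -0.46 to 0.072 and -0.47 to 0.32. From E16 to P16, the set as covariate turned miR-34c-3p to -0.43 and miR-34c-5p to -0.68, and leaving out set C turned the latter to -0.0014. From P0 to P16, miR-34c-3p (0.23) went to -0.081 with the set as covariate and -0.36 without set A, and miR-34c-5p (-0.39) to 0.56 with the block, spanning -0.89 to 0.87 when leaving out each library. Of the organ differences, that of miR-449a-5p from E16 to P0 (0.60) went to -0.44 with the set as covariate, spanning -0.49 to 1.14, and from E16 to P16 miR-34b-3p (-0.55) went to 0.32 with library totals, spanning -0.87 to 0.16, and miR-34c-3p (0.46) to -0.44 with the set as covariate. Depth limits the cochlear values of miR-449a-5p and miR-34c-3p, some of them on fewer than 5 counts.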
